A study of Mus musculus with 3 samples.

Results

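The 10 CBTi-seq columns named knock, each a picked cell of the mouse fibroblast line L929, were split by their level of Cdkn1a into the 5 highest and the 5 lowest. They are 10 of the 20 columns of the CBTi-seq table and 10 of 36 columns in the series. The study compared Rrm2-knockdown with control cells in 2 assays, CBTi-seq and a 3' method, and the 3' columns are not used here. The other 10 CBTi-seq columns, named control, served as a second set of cells that the split did not use. All 20 cells belong to 1 line and stand in 1 deposited sample with no treatment or time label, and the labels used here do not say how the knockdown was made. Cells of 1 sample are not replicates, and the cells were chosen by a value from the same counts. No test was therefore run, and intervals on a level (exact Poisson) or on a log2 ratio (exact conditional) cover counting error only, at 95%.

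Cdkn1a encodes p21, an inhibitor of cyclin-dependent kinases. It is a classic target gene of the transcription factor p53 and rises after DNA damage or replication stress. By holding back CDK2 with cyclin E or A, p21 keeps RB family proteins bound to E2F factors, which otherwise switch on genes for DNA replication. Rrm2, which the knockdown targets, encodes the small subunit of ribonucleotide reductase, which makes the deoxynucleotides that replication uses.

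The Cdkn1a gene spans chromosome 17, 29090976 to 29100727, plus strand (GENCODE vM21, GRCm38), where a gene on the other strand, AC167363.2, overlaps it. The use of strand in counting is not given, so reads of both cannot be told apart. Cdkn1a chose the groups, so its values are only a description of the split. Levels are counts scaled to the total of a cell or group (CPM in the usual sense). In the high cells it stood at 388.5 CPM in knock cell 1, 426.0 in cell 3, 469.2 in cell 2, 470.5 in cell 5 and 609.5 in cell 7. In the low cells it stood at 248.1 CPM in knock cell 8, 261.6 in cell 4, 300.6 in cell 9, 322.1 in cell 10 and 384.7 in cell 6. The split passes between cells 6 and 1, which are 3.84 CPM apart and have intervals that overlap almost wholly (308.9 to 473.4 and 306.6 to 485.6 CPM). The 10 levels still varied 11.3 times as much as counting error alone gives (index of dispersion). No cell changed group under 6 other ways of scaling or correcting the counts. The control cells ranged from 105.2 to 360.8 CPM, so the low knock cells overlap the upper control cells and the high knock cells lie above all control cells.

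**Figure D1:**
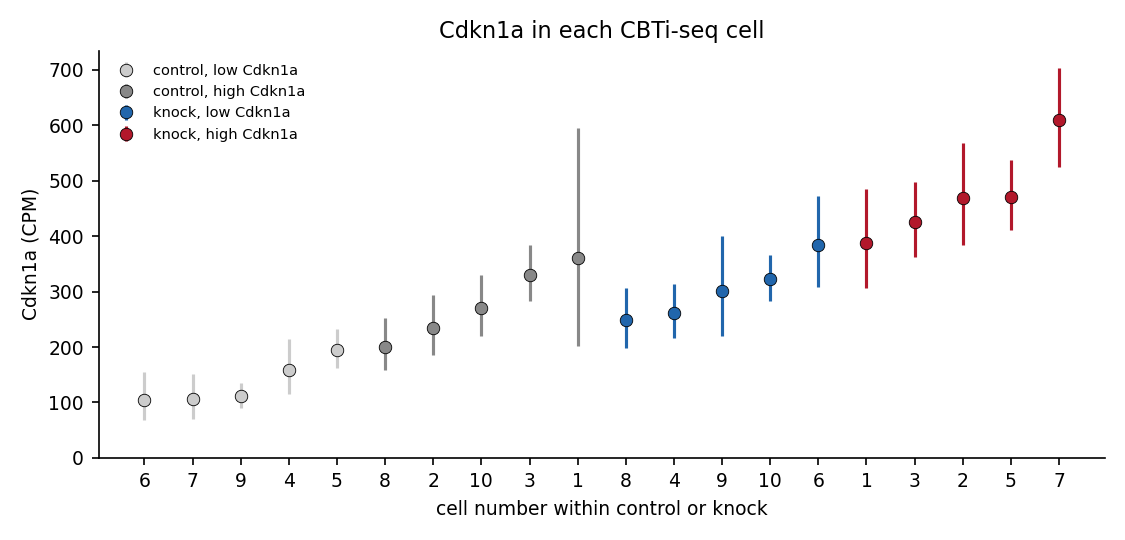
Cdkn1a level (CPM) in each of the 20 CBTi-seq cells, ordered within each group, with exact Poisson 95% intervals as bars. The knock cells run from 248.1 to 609.5 CPM without a clear step where the groups part, and control cell 1 has the widest interval, from 15 counts.

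The high cells held 198200 to 467629 counts (median 310094) and the low cells 153051 to 735871 (median 350687). Cdkn1a and the log2 total were almost unrelated over the 10 knock cells (r -0.12), which stand in 1 deposited sample. Mitochondrial genes took 0.725% to 1.20% of counts in the high cells and 0.604% to 1.38% in the low cells. Fibroblast markers were present, with Vim, the intermediate filament vimentin, at 1145.5 and 1010.5 CPM and Sparc, a matrix protein, at 561.7 and 496.5 CPM, although Thy1 and Lox, both in the same list of 12, had no count in any knock cell. Markers of endothelium were at 0 in every knock cell, and summed markers of epithelium, of T and B cells, of neurons and glia and of red cells stayed below 10 CPM in every knock cell. Summed macrophage markers were at 66.6 to 126.1 CPM in high and 91.2 to 153.6 CPM in low cells, muscle markers at 36.4 to 85.2 and 6.53 to 89.4 CPM, and adipocyte markers at 239.0 to 1004.0 and 311.2 to 575.5 CPM. Most of the adipocyte sum was Fabp4, a fatty acid carrier, at 432.3 and 402.1 CPM. Over each group as a whole most of the muscle sum was Des, the filament protein desmin, at 56.4 and 51.8 CPM. Across single low cells, however, the median was 21.6 CPM for Des and 73.5 CPM for the muscle sum. The part of these markers in the results was not tested.

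Rrm2, the target of the knockdown, did not follow the split in the way Cdkn1a did. It was at 489.4, 370.1, 354.1, 408.4 and 316.0 CPM in high cells 1, 3, 2, 5 and 7, and at 330.8, 324.8, 398.6, 282.7 and 384.7 CPM in low cells 8, 4, 9, 10 and 6. The groups overlap, and of the 5 Cdkn1a-high cells 3 were also among the 5 highest in Rrm2. The log2 ratio of high over low cells was 0.25 (0.08 to 0.41), and 0.14 without cell 10. In the control cells Rrm2 was at 356.1 to 652.3 CPM (median 471.3). Knock cells 1, 3, 5, 6 and 9 lay within that range and knock cells 2, 4, 7, 8 and 10 below it.

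Genes of S phase and DNA replication formed the lowest list in the Cdkn1a-high cells. Of 51 members averaging 20 CPM or more, 48 were lower in the high cells, beside 57.4% of all 8147 genes at that level, and 13 were at least 2-fold lower, beside 1.96%. Their median log2 ratio was -0.66, and -0.07 over all genes. None of the 51 separated the groups without overlap, as 0.589% of all genes did in this direction. Of all 28 pathway lists, the next lowest were the histones, with 4 members at that level and a median of -0.49, and replication checkpoint and DNA repair, with a median of -0.40.

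Knock cell 10 carries a large share of this difference. Summed over the list, S phase RNA stood at 2215, 2686, 2718, 4020 and 3283 CPM in high cells 1, 3, 2, 5 and 7. It stood at 3781, 4713, 3130, 6040 and 4097 CPM in low cells 8, 4, 9, 10 and 6. The 3 lowest sums were in high cells and the 3 highest in low cells, and the groups overlap between them. Without cell 10 the median rose to -0.34, with 40 of 49 members lower beside 51.6% of all genes, and without cell 5 it fell to -0.89. Cell 10 also held the most counts, and the summed level followed the log2 total across the 10 cells (r 0.73) more closely than it followed Cdkn1a (r -0.39, rho -0.36, r -0.47 without the 2 cells farthest in Cdkn1a). With every cell thinned to 150000 counts the median was -0.65. Thinning at random keeps each gene's expected share of a cell, so this value does not address the relation with the total. The part of that relation in the ratio was not tested.

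**Figure D2:**
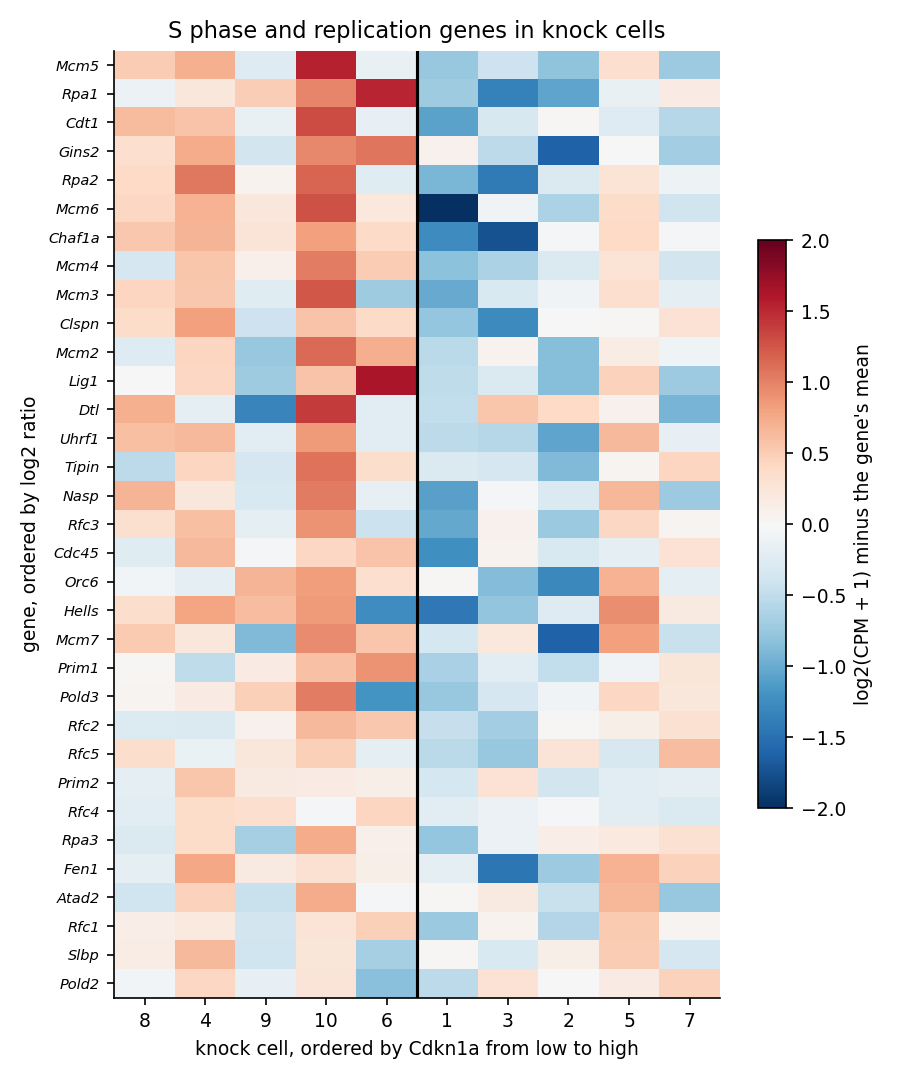
Level of S phase and replication genes at a mean of 50 CPM or more, as log2(CPM + 1) minus the gene's mean over the 10 knock cells. Cells run from low to high Cdkn1a, the black line parts the groups, and the column of cell 10 is the most uniformly above the mean.

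Genes that load the replicative helicase onto origins were lower throughout. All 10 licensing genes at 20 CPM or more were lower in the high cells, with a median of -0.89. Cdc6, which loads the MCM ring with Cdt1, had the largest ratio of the list. It was at 15.1, 8.0, 4.4, 15.0 and 12.9 CPM in high cells 1, 3, 2, 5 and 7, against 20.0, 58.9, 32.7, 80.2 and 8.6 CPM in low cells 8, 4, 9, 10 and 6. Low cell 6 fell among the high cells and the other 4 low cells lay above all of them. The log2 ratio of Cdc6 was -2.15 (-3.00 to -1.45), from 18 and 100 counts, and -1.57 without cell 10.

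Among genes at 50 CPM or more, Mcm5, a subunit of the helicase ring, had the largest ratio of the list. It was named after its values were seen, as were Mcm6, Cdt1, Gins2, Rpa1 and Rpa2, the other members past 2-fold at that level, which 0.417% of all genes reached in this direction. Mcm5 was at 50.5, 63.9, 48.7, 109.1 and 51.6 CPM in high cells 1, 3, 2, 5 and 7, and at 122.6, 141.7, 71.9, 251.4 and 77.8 CPM in low cells 8, 4, 9, 10 and 6. Only high cell 5 reached into the range of the low cells. The groups as wholes stood at 71.0 and 166.9 CPM, so the log2 ratio was -1.23 (-1.56 to -0.92), and -0.69 without cell 10. Mcm6, of the same ring, was at 78.6 and 160.1 CPM (-1.02, and -0.67 without cell 10). Cdt1, the licensing factor that is destroyed once S phase starts, was at 33.6 and 77.2 CPM (-1.19, and -0.78 without cell 10).

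The steps after licensing were lower as well, by differing amounts. Of 6 genes that activate the helicase, 5 were lower, with Mcm10 at -1.60 (-2.37 to -0.93) and Gins4 as the exception at 0.34 (-0.07 without cell 2). Of 8 polymerase and primase genes, 7 were lower with a median of -0.38, led by Pola1, the catalytic subunit of the primer-making polymerase. Pola1 was at 0, 24.0, 31.0, 12.8 and 38.7 CPM in high cells 1, 3, 2, 5 and 7, against 31.4, 54.5, 65.3, 84.3 and 69.2 CPM in low cells 8, 4, 9, 10 and 6. Only high cell 7 stood above the lowest low cell, and the log2 ratio was -1.56 (-2.17 to -1.02). The 0 in cell 1 allows up to 15.1 CPM, the level of 3 counts there.

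Rpa1 and Rpa2, subunits of the complex that coats single-stranded DNA at forks, stood out among the 8 genes of single-strand binding and clamp loading. All 8 were lower, with a median of -0.33. Rpa1 was at 50.5, 31.9, 39.8, 74.8 and 93.5 CPM in high cells 1, 3, 2, 5 and 7, and at 77.0, 98.1, 117.6, 165.8 and 242.0 CPM in low cells 8, 4, 9, 10 and 6. Only cell 7 overlapped the low cells. The log2 ratio of Rpa1 was -1.20 (-1.56 to -0.86) and stayed between -1.41 and -1.002 with any 1 cell left out, with the value nearest 0 without cell 3. Rpa2 was at 70.4 and 153.9 CPM (-1.13, -0.87 without cell 10). All 4 genes of flap removal and ligation were lower, but Ung, the uracil glycosylase, went from -1.31 to -0.01 without cell 10.

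Histone supply and chromatin assembly genes were all lower (7 of 7, median -0.47), with Chaf1a, the large subunit of the histone chaperone CAF-1, lowest at -0.90. Few replication-dependent histone genes could be read: 37 of 39 symbols were in the table and 4 reached 20 CPM. H1f4 and H1f5, both linker histones, had log2 ratios of -0.69 and -0.92, H2bc4 -0.30, and the linker histone H1f2 went the other way at 0.90. Their RNA mostly lacks a poly(A) tail, and the primer was an oligo dT. Leaving out cell 7 moved H1f5 to -2.28 and H1f2 to 0.15, and without cell 10 H1f2 was at 1.94.

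S phase genes are a known target group of E2F factors, so their promoters were searched for 4 E2F-type octamers, TTTGGCGC, TTTCGCGC, TTTCCCGC and TTTGCCGC, on both strands and with overlaps allowed. Windows end 50 bases past the annotated start (RefSeq, GRCm38.p6). Of the 51 S phase members 39 had a window and 18 of these (46.2%) held a match, against 704 of 27025 genes (2.61%), 2 of 48 genes of G2 and mitosis (4.17%) and 1 of 38 p53 target genes (2.63%). Of the 6 members past 2-fold at 50 CPM, 5 had a window and 3 of them a match. These 3 are shown together with Rpa1, which has none, 5' to 3' along the gene's strand with matches in capitals. Overlapping matches run together in Mcm5 (chr8:75109259-75109558, plus strand) and at the first site of Mcm6 (chr1:128359656-128359955, minus). Cdt1 (chr8:122567765-122568064, plus) has a single match, and the window of Rpa1 is chr11:75348334-75348633 (minus).
Mcm5: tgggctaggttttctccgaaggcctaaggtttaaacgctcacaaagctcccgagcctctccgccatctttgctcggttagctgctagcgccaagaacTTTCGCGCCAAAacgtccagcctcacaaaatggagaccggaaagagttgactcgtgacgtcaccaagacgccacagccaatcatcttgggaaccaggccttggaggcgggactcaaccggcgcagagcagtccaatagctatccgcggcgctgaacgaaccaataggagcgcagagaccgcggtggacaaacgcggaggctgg
Mcm6: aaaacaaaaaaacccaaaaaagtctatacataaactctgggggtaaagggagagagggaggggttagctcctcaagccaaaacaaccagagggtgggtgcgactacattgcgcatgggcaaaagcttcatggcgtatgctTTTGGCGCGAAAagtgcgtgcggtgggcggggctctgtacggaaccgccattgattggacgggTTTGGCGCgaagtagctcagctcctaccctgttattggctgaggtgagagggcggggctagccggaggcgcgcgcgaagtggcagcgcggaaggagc
Cdt1: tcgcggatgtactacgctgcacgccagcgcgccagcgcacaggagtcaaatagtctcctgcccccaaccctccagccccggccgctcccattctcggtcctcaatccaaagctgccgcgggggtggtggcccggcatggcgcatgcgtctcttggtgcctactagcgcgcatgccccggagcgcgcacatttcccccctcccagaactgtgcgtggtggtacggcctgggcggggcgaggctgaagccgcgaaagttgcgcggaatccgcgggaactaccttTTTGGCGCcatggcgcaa
Rpa1: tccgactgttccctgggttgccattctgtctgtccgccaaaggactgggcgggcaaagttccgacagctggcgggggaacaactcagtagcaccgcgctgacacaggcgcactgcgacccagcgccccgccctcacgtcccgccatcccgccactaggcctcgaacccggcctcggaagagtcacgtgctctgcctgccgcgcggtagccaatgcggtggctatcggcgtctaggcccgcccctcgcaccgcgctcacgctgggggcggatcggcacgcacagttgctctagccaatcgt
A match is a description of these letters and not a bound site. The search did not use the Cdkn1a split, and the 27025 genes had no level limit. The shares therefore say nothing about the high and low cells. The ratios of Mcm5, Mcm6 and Cdt1, with a match, and of Rpa1 and Rpa2, without one, ran from -1.23 to -1.02.

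The regulators of S phase entry went in both directions. E2f1, an activating E2F, was at 50.5, 45.3, 22.1, 77.0 and 58.1 CPM in high cells 1, 3, 2, 5 and 7, against 77.0, 95.9, 32.7, 133.2 and 121.0 CPM in low cells 8, 4, 9, 10 and 6. The groups overlap through low cell 9, and the log2 ratio was -0.94 (-1.32 to -0.57), or -0.67 without cell 10. Rbl1, which encodes the RB relative p107, was lower without overlap, with 31.0 to 50.6 CPM in the high and 54.2 to 101.9 CPM in the low cells (-0.86, -1.29 to -0.45). Ccne2, a cyclin E, had a ratio of -0.86 that vanished without cell 10 (-0.03). The related Ccne1 went from -0.59 to 0.31 without cell 10. E2f3 was higher at 41.2 against 20.7 CPM (0.98, 0.40 to 1.60), also without overlap.

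The D cyclins and their kinases did not go one way. Ccnd1, Ccnd2 and Cdk6 were higher in the high cells, Ccnd3 was lower at 111.6 against 145.1 CPM (-0.38), and Cdk4 was alike at 448.2 and 454.5 CPM (-0.02). All 5, like Ccne1, were named after their values were seen. Ccnd1 was at 792.1, 750.8, 398.4, 585.9 and 432.1 CPM in high cells 1, 3, 2, 5 and 7, and at 416.3, 357.5, 463.9, 360.1 and 458.1 CPM in low cells 8, 4, 9, 10 and 6. Cells 1, 3 and 5 lay above every low cell and cells 2 and 7 did not. The log2 ratio was 0.61 (0.47 to 0.75) for Ccnd1, 0.38 for Ccnd2 and 0.46 for Cdk6. Of the 20 genes of this list at 20 CPM, 12 were lower, beside 57.4% of all genes, and 8 higher. Their median of -0.14 changed sign with 1 cell left out.

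Genes of G2 and mitosis were mostly a little lower in the high knock cells. Of 59 members 46 were lower, beside 57.4% of all genes, and none was 2-fold apart. Their median was -0.14, beside -0.07 over all genes. The median depended on single cells, with -0.34 without cell 10, -0.27 without cell 2 and -0.25 without cell 7, but -0.01 without cell 4 or cell 5, -0.04 without cell 3 and -0.06 without cell 8. The summed level ran from 7673 to 14908 CPM in high cells and from 8119.6 to 13239.5 CPM in low cells, so the range of the low cells lies inside that of the high cells. Mki67, the proliferation marker, was at 214.3 and 268.4 CPM (-0.32, and -0.12 without cell 5), and Mybl2, an activator of late cell cycle genes, had the lowest ratio at -0.98 (-1.40 to -0.59). Cdc25c, the phosphatase that opens entry into mitosis, was higher without overlap, at 60.5 to 95.9 CPM in high and 17.3 to 54.5 CPM in low cells (0.80, 0.39 to 1.23).

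**Figure D3:**
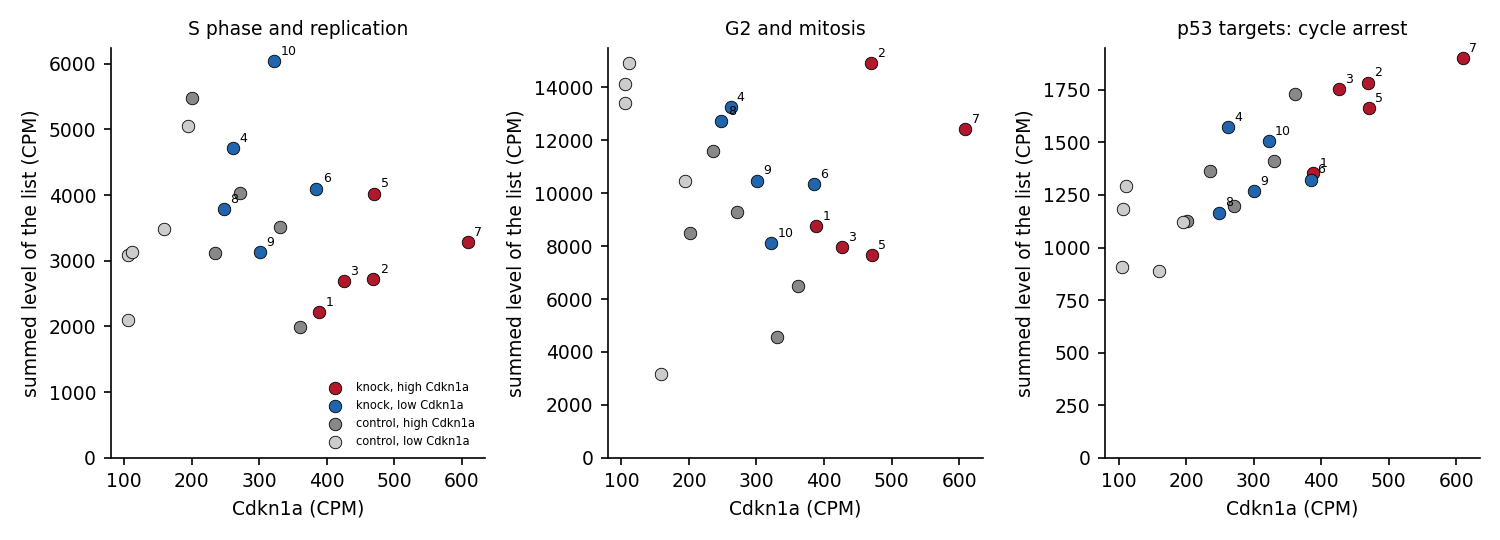
Summed level (CPM) of 3 gene lists in each CBTi-seq cell against its Cdkn1a level, with knock cells numbered. In the knock cells the S phase sums of high cells 1, 2 and 3 lie below those of all low cells while cells 5 and 7 lie among them, mitosis sums are scattered, and p53 arrest sums are higher in cells 2, 3, 5 and 7 than in any low cell.

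The p53 targets that act in cell cycle arrest were moderately higher in the high cells, with Cdkn1a itself left out of the list. Of 14 members at 20 CPM, 9 were higher, beside 42.6% of all genes, and none 2-fold, and the median log2 ratio was 0.33 (0.18 to 0.33 with any 1 cell left out). The summed level followed Cdkn1a across the 10 knock cells (r 0.75, rho 0.81), less so without the 2 cells farthest in Cdkn1a (r 0.49). It ran from 1352 to 1899 CPM in high and from 1166 to 1574 CPM in low cells, and high cell 1 was the one that fell inside the range of the low cells.

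Phlda3, a p53-induced brake on AKT, followed Cdkn1a more closely than any other member. It was at 196.8, 247.6, 247.9, 288.7 and 332.2 CPM in high cells 1, 3, 2, 5 and 7, and at 139.7, 202.7, 143.7, 201.1 and 207.5 CPM in low cells 8, 4, 9, 10 and 6. Only cell 1 overlapped the low cells, and the log2 ratio was 0.53 (0.33 to 0.74). Ccng1, cyclin G1, was at 126.1 to 328.9 CPM in high and 65.6 to 202.7 CPM in low cells (0.68, 0.44 to 0.91). Gtse1, a mitotic protein that restrains p53, was at 107.1 and 61.7 CPM (0.80, 0.45 to 1.15). Gadd45a, a DNA damage response gene, and Plk2, a stress-induced kinase, had ratios of 0.40 (0.22 to 0.58) and 0.39 (0.13 to 0.65). Sesn2, a stress-induced regulator of mTORC1, went the other way at -0.34 (-0.64 to -0.05), and Zmat3, an RNA-binding p53 target, was at 0.08 (-0.21 to 0.37).

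Of the targets that act in cell death 6 of 9 were higher, beside 42.6% of all genes. Their median was 0.04, ran from 0.02 to 0.31 with 1 cell left out and was highest without cell 10. Tnfrsf10b, a death receptor, was at 30.3, 135.8, 22.1, 106.9 and 51.6 CPM in high cells 1, 3, 2, 5 and 7, against 34.2, 30.5, 26.1, 68.0 and 34.6 CPM in low cells 8, 4, 9, 10 and 6. Its ratio of 0.83 (0.43 to 1.24) therefore rests on cells 3 and 5. Aen, an apoptosis-enhancing nuclease, and Ei24, a membrane protein induced by p53, had ratios of 0.63 and 0.59, and Bax, which permeabilises mitochondria, was at 394.9 and 311.4 CPM (0.34, 0.18 to 0.51).

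Among targets of feedback, metabolism and repair, 9 of 18 were higher, beside 42.6% of all genes, with a median of -0.05, and Ak1 stood apart. Ak1, on chromosome 2 from 32621758 to 32635058 (GRCm38), encodes a cytosolic adenylate kinase, which interconverts adenine nucleotides. It was at 423.8, 372.7, 234.6, 331.5 and 328.9 CPM in high cells 1, 3, 2, 5 and 7, and at 51.3, 161.3, 98.0, 156.3 and 95.1 CPM in low cells 8, 4, 9, 10 and 6. The groups did not overlap, and the ratio was 1.42 (1.20 to 1.65), with 1.24 to 1.64 as any 1 cell was left out. Ak1 was the single p53 target among the genes at 50 CPM that were 2-fold higher. At 20 CPM Eda2r joined it, so 2 of 18 passed 2-fold beside 1.41% of all genes. Eda2r, a receptor of the TNF family, was at 33.0 and 13.0 CPM (1.33, 0.63 to 2.10) and had no count in high cell 1 and low cells 8 and 9. Mdm2, the ligase that degrades p53, was at 0.27 with an interval that touched 0, and Trp53, the gene of p53 itself, at -0.16 (-0.37 to 0.04). Pcna, the sliding clamp of replication and also a p53 target, was at 97.6 and 137.3 CPM (-0.49, -0.79 to -0.20).

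Replication checkpoint and DNA repair genes were lower in 28 of 32 cases, beside 57.4% of all genes, with a median of -0.40. Their summed level followed the log2 total across the 10 knock cells (r 0.63) more closely than it followed Cdkn1a (r -0.32). The part of the total in these ratios was not tested. At least 2-fold lower were 5 of the 32, beside 1.96% of all genes. These were Mdc1 (-1.72), which gathers repair proteins at breaks, the kinase Atm (-1.43), and Fancd2, Brca2 and Brca1 of crosslink and recombination repair (-1.35, -1.11 and -1.09). All 5 had means below 50 CPM. Without cell 10 only Mdc1 stayed past 2-fold (-1.57), and Fancd2 moved to -0.75, Atm to -0.89, Brca2 to -0.78 and Brca1 to -0.97. Rad1, part of the clamp that loads at damaged DNA, was higher without overlap at 92.6 and 56.0 CPM (0.72).

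Nucleotide synthesis, the pathway of the knockdown target, had a median of -0.11, beside -0.07 over all genes. Of its 35 members 25 were lower, beside 57.4% of all genes. Its summed level followed the log2 total (r 0.90) more closely than Cdkn1a (r -0.14) across the 10 knock cells. The part of the total in these ratios was not tested. Dck, the deoxycytidine kinase of the salvage route, was at 31.1 and 54.9 CPM (-0.81, -1.34 to -0.32). Pfas, an enzyme of purine synthesis, went the other way. It was at 211.9, 255.6, 66.4, 275.9 and 77.4 CPM in high cells 1, 3, 2, 5 and 7, against 88.4, 54.5, 91.5, 114.2 and 64.8 CPM in low cells 8, 4, 9, 10 and 6. High cells 1, 3 and 5 lay far above the rest and cells 2 and 7 among the low cells, so the ratio of 1.15 (0.87 to 1.43) describes 3 cells.

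**Figure D4:**
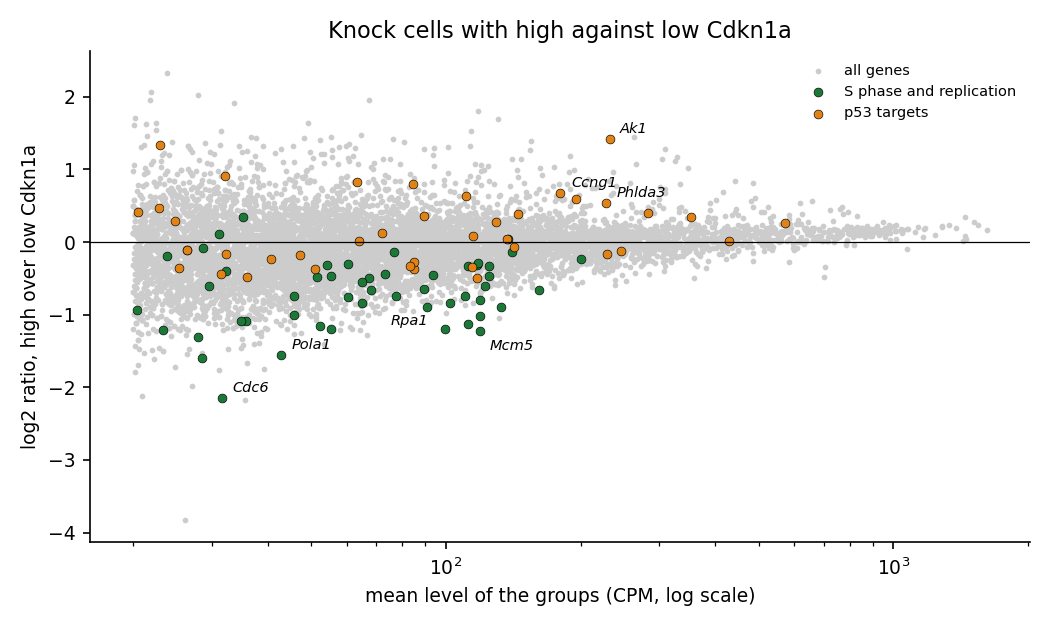
Log2 ratio of high over low Cdkn1a knock cells for every gene against its mean level (CPM, log axis), with S phase and p53 target genes marked and Cdkn1a left out. S phase genes lie mostly below 0, with Cdc6 lowest among them at -2.15, and Ak1 lies highest among the p53 targets at a mean of 50 CPM or more.

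The limit of 50 CPM left 5036 genes. In the high cells, 54 of them (1.07%) were higher by 2-fold or more and 21 lower. Of these 21 genes 6 were S phase genes (Cdt1, Gins2, Mcm5, Mcm6, Rpa1 and Rpa2), and none belonged to another of the 28 lists. Of the genes 2-fold apart 72.0% were higher, and this share was 82.9% with equal weights of cells or with median-of-ratios factors. With the limit at 20 CPM it was 41.8%, from 115 higher and 160 lower genes, so the majority there was lower. Leaving out single cells moved the counts strongly. There were 31 higher genes without cell 3, 87 without cell 7 and 83 without cell 10, and there were 36 lower genes without cell 4, 47 without cell 5, 34 without cell 8 and 12 without cell 10. Genes whose cells did not overlap numbered 20 higher (0.397%) and 32 lower (0.635%). With 1 cell left out they numbered 23 to 72 and 45 to 73, as fewer cells separate more easily. Some genes separate in any split of 5 against 5 cells, and how many would do so was not calculated.

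Pdp2, a phosphatase that activates pyruvate dehydrogenase, had the largest ratio among genes without overlap. It was at 146.3, 125.1, 35.4, 147.6 and 51.6 CPM in high cells 1, 3, 2, 5 and 7, and at 25.7, 28.3, 19.6, 28.5 and 30.3 CPM in low cells 8, 4, 9, 10 and 6. The low cells were nearly alike, with cell 9 at its floor of 3 counts, while the high cells fell into 3 far above and 2 just above them. The groups were parted only by 35.4 CPM in high cell 2 against 30.3 CPM in low cell 6. The ratio was 1.95 (1.51 to 2.44). Cells 1, 3 and 5 were also the 3 highest in Pfas and in Ccnd1. Enc1, an actin-associated KLHL protein, was at 81.1 and 29.5 CPM (1.45), with 39.8 CPM in the lowest high cell and 37.1 CPM in the highest low cell. Yod1, a deubiquitinase, was at 87.5 and 34.2 CPM (1.35, and 2.10 without cell 10), Inafm2 at 1.32, and Bhlhe41, a repressor of the circadian clock, at 1.19 (0.86 to 1.54). Endog, the mitochondrial endonuclease G, was at 79.7 to 111.0 CPM in high and 25.9 to 58.4 CPM in low cells (0.82), and Ubl3, Ankrd13c and Thoc1 had ratios of 0.91, 0.82 and 0.69.

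Among the genes lower without overlap, Trpm7, a channel with a kinase domain that carries magnesium, came first. It was at 45.4, 24.0, 13.3, 55.6 and 45.1 CPM in high cells 1, 3, 2, 5 and 7, and at 85.6, 82.8, 65.3, 122.3 and 64.8 CPM in low cells 8, 4, 9, 10 and 6 (-1.29, -1.74 to -0.87). Ldb1, an adaptor of LIM-domain transcription factors, was at 33.6 and 78.3 CPM (-1.21, -1.70 to -0.76). Atrx, a chromatin remodeller, was at 45.3 to 132.8 CPM in high and 156.8 to 233.4 CPM in low cells (-1.05, -1.35 to -0.76). Ganab and Uggt1, which trim and check glycans on proteins folding in the endoplasmic reticulum, were at -0.76 and -0.75. Smurf1, a ubiquitin ligase of the BMP and TGF-beta pathway, was at -0.87, Slc39a6, a zinc importer, at -0.84, Agtrap at -0.77, Xpo7, a nuclear transport receptor, at -0.72, and Ddx17, an RNA helicase, at -0.69.

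Over the 10 knock cells, the genes that ranked most like Cdkn1a among those at 50 CPM or more were Commd6 (rho 0.89), Phlda3 (0.88), Hadhb, Ubl3 and Rala (0.85 each). The least like were Col4a2, a chain of basement membrane collagen (-0.93), Tead1, the DNA-binding partner of YAP (-0.92), Rnf44 (-0.89), D8Ertd738e (-0.87) and Hnrnpr (-0.85). These are the ends of a ranking over 10 cells of 1 sample, given as a description. In the 10 control cells the same genes had rho values of -0.38, 0.16, -0.38, 0.38 and 0.35 for the first 5, and -0.32, -0.01, 0.58, 0.03 and 0.02 for the last 5. Of the first 5, 2 thus had a negative rho there, and of the last 5, 3 had a positive one.

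Most other lists lay close to all genes. With 1 cell left out 19 of the 28 list medians changed sign, all of them within 0.14 of 0. Cytosolic ribosomal protein genes were higher in 74 of 75 cases, beside 42.6% of all genes, by a median of 0.13. The count was the same in the control cells (median 0.21), where 55.3% of all genes were lower. In the knock cells the median was -0.10 without cell 10 and 0.09 to 0.20 without any other 1 cell. Their share of counts was 8.55% in knock cell 9 (153051 counts) and 3.99% in knock cell 10 (735871). It was 10.0% in control cell 1 (41570) and 3.79% in control cell 9 (846819). Knock cell 10 and control cell 9, the deepest of their sets, were in the low groups. By cell, the median summed level was lower in the high groups (59608.5 against 64684.5 CPM in knock, 62227.8 against 63876.5 CPM in control cells). The part of depth was not tested. Of the endoplasmic reticulum chaperone genes 19 of 25 were higher, beside 42.6% of all genes (median 0.12, but -0.03 without cell 10). Of the extracellular matrix and integrin genes 15 of 21 were lower, beside 57.4% of all genes (median -0.19). Cholesterol and fatty acid synthesis was balanced (14 of 29 higher, beside 42.6% of all genes, median -0.01). Insig1, which retains its regulator, still had a ratio of 0.84. Insig1 was at 504.5, 300.9 and 329.3 CPM in high cells 1, 3 and 5, above every low cell, and at 177.1 and 196.7 CPM in high cells 2 and 7, within the low cells' range of 110.1 to 229.1 CPM. Interferon, heat shock, proteasome, integrated stress response and oxidative phosphorylation lists had medians between 0.01 and 0.07.

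The ratios of Cxcl2 and Cxcl1 changed sign with a single cell. Cxcl2, a chemokine that attracts neutrophils, was at 45.4, 32.0, 39.8, 2.1 and 3.2 CPM in high cells 1, 3, 2, 5 and 7, and at 5.7, 10.9, 6.5, 127.7 and 13.0 CPM in low cells 8, 4, 9, 10 and 6. Its ratio of -1.41 (-2.04 to -0.84) turned to 1.097 without cell 10. The related Cxcl1 went from -0.60 to 0.62 in the same way, and 3 of the 5 Cdkn1a-high cells were among the 5 highest in Cxcl1.

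The same split of the 10 control cells, into 200.9 to 360.8 and 105.2 to 194.8 CPM of Cdkn1a, gave another picture for the cell cycle. Of the S phase genes 20 of 49 were lower there, beside 55.3% of 8506 genes, with a median of 0.18. This median was -0.02 without control cell 8 and 0.03 to 0.34 without any other 1 cell. Across the 10 control cells the summed S phase level and Cdkn1a gave r 0.10 (rho 0.18), and r -0.30 without the 2 farthest cells. Mcm5 was at 134.9 CPM in the high and 89.1 CPM in the low control cells (0.60, 0.32 to 0.88). Genes of G2 and mitosis were lower in 59 of 59 cases with a median of -0.61, against -0.14 in the knock cells. The summed level of these genes overlapped widely between the control groups, from 4580 to 11610 CPM in the high and from 3168 to 14904 CPM in the low cells, with the lowest sum in low cell 4 and the highest in low cell 9. The median was -0.35 without control cell 3 or control cell 9 and -0.84 without control cell 2. Cdc25c and Gtse1, higher in the Cdkn1a-high knock cells, were lower in the Cdkn1a-high control cells at -0.79 and -1.06. The difference between the splits has no test, since each rests on cells of 1 sample. The lowest cell of this set, control cell 1, held 41570 counts, and without it the medians were 0.20 and -0.60.

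**Figure D5:**
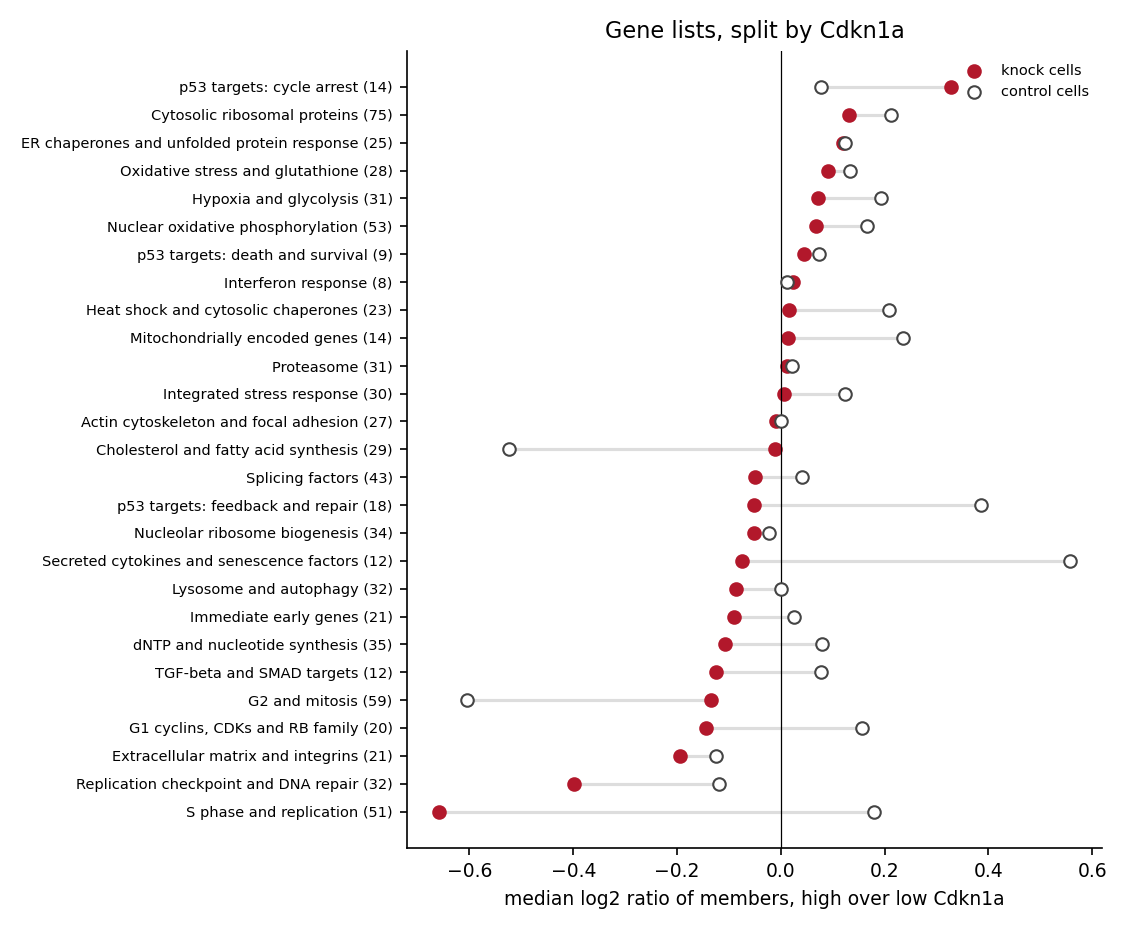
Median log2 ratio, high over low Cdkn1a, of each pathway list with at least 5 members at 20 CPM (number of members in brackets), for knock cells and control cells. S phase genes are lowest in the knock cells at -0.66 and above 0 in the control cells, while G2 and mitosis genes are lowest in the control cells at -0.61.

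The p53 targets as a whole had the same direction in both sets of cells about as often as all genes did. Of 36 targets at 20 CPM in both sets 19 had the same direction (52.8%), beside 53.2% of 7846 genes, and 13 of these were higher in both. In the control cells 7 of 14 arrest targets were higher and 7 lower, where 55.3% of all genes were lower. Of the 36 targets 8 were higher in the high knock cells and lower in the high control cells, among them Ei24 at 0.59 and -0.30 and Ckap2, a spindle protein, at 0.37 and -0.74. Among targets higher in both, the ratio in the control cells was 1.31 for Ccng1, 0.99 for Dglucy, 0.66 for Plk2, 0.46 for Phlda3 and 0.39 (0.12 to 0.65) for Ak1. Eda2r lay below 20 CPM in the control cells, at 12.4 and 4.01 CPM, and so outside the 36. Its ratio there was 1.58 (0.43 to 2.95). Dglucy was at 0.90 in the knock cells. In the control cells the summed arrest list and Cdkn1a gave r 0.64 (rho 0.71, and r 0.60 without the 2 farthest cells, control cells 6 and 7). Control cell 1, which stayed in, had both the highest Cdkn1a, from 15 counts, and the highest sum, at 1732 CPM. Of that sum 1419.3 CPM was Ccng1, in a cell of 41570 counts. The relation without control cell 1 was not calculated. The median of the list's members was 0.08, and -0.18 with equal weights of cells or -0.13 without control cell 3. Pcna, lower in the Cdkn1a-high knock cells, was higher in the Cdkn1a-high control cells (0.72, 0.44 to 1.01).

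Over all genes the splits shared little. Among 4783 genes at 50 CPM in both, 54.6% had the same direction (r -0.01 across genes, which are not independent). Of 66 genes 2-fold apart in the knock cells 34 had the same direction in the control cells, and of 49 without overlap 25 did. In the control cells 27 of 5366 genes (0.503%) were higher by 2-fold or more and 62 (1.16%) lower. There 4 genes (0.0745%) were higher and 21 (0.391%) lower without overlap. With equal weights of cells the count of higher control genes rose to 176, where control cell 1 weighs as much as the deeper cells.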

How the data were processed

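The CBTi-seq table holds unnormalized counts of molecular identifiers as the authors deposited them, going by the table's name. Per the labels' protocols, single cells were picked by capillary into lysis buffer and amplified over 20 PCR cycles after oligo dT priming. The submitters' processing notes name STAR 2.7.11b, FastQC and Picard, and both GRCm38 and GRCh38 with no role for either. Not given in the sources used here are the counter, its filters and whether it used strand. Of 178 genes with values in the text or in its tables, 174 matched GENCODE vM21, where 65 overlap a gene on the other strand and 37 one on the same strand, so reads of such pairs may be shared. The 16 columns of the 3' tables were not used here.

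The members and lists were chosen with earlier results of these data known. The 10 knock columns were ranked by Cdkn1a counts scaled to each column's total (CPM), and counts were summed over the 5 highest and the 5 lowest. Cells were picked one by one and the columns carry no barcodes, so no doublet caller was run and every column was kept. Correlations between cells over genes ran from 0.493 to 0.912, so no column was a copy of another. A log2 ratio compares the summed CPM, with 0.5 added to each count, and has an exact conditional (Clopper-Pearson) 95% interval. Levels have exact Poisson intervals. Both leave out the spread of cells. Genes were called 2-fold apart at a mean of 50 CPM or more, and lists were read at 20 CPM or more. Each cell's floor is the CPM of 3 counts. Cdkn1a was left out of every count and list. Sums of lists were compared with Cdkn1a on log2 scales.

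Genes were named by a rule: Rrm2, the 12 largest ratios in each direction among genes at 50 CPM whose cells did not overlap and whose direction held without the highest cell, up to 4 members per list, p53 targets at 50 CPM, and the 5 genes at each end of the Spearman ranking. Named outside it, after their values were seen, were Mcm5, Mcm6, Cdt1, Gins2, Rpa1, Rpa2, Chaf1a, Gins4, Ccnd1, Ccnd2, Ccnd3, Cdk4, Cdk6, Ccne1, Mki67 and Brca1, and the markers Vim, Sparc, Fabp4 and Des. A few genes are not reported here by name. Older symbols of histones and 2 other genes were matched through RefSeq synonyms. In all, 22 symbols turned into dates (0.206% of counts) stayed in the totals and were not named. The highest count of a gene in a knock cell was 512 to 638, so counts were also corrected for identifier collisions with a pool from 5 bases and with a pool 1.1 times the highest count. Other alternatives were equal weights of cells, totals that leave out mitochondrial and ribosomal protein genes, scaling by TMM (edgeR 4.0.16) or by median of ratios (DESeq2 1.42.0), thinning to 150000 counts, other level limits, leaving out each cell, and leaving out both cells next to the limit. The calculation was tested on simulated counts that held counting error and no spread between cells. There 0 of 4853 unaltered genes passed 2-fold, and 96.5% of intervals for the 200 altered genes held the true ratio. Because the real cells differ by more than counting error, this does not show how often such calls arise in them. Other steps ran in R 4.3.3 and in Python 3.11.15 with scipy 1.17.1, pandas 2.3.3, numpy 2.4.6 and matplotlib 3.10.9.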

Additional observations from a re-analysis of the deposited data

How the results depend on the processing

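No paired analysis was possible because all columns belong to 1 sample and the numbers of knock and control columns do not mark shared cells. The direction of the S phase median (-0.66) and of the p53 arrest median (0.33) in the knock cells held under all 20 alternatives run, with ranges of -0.89 to -0.34 and 0.18 to 0.42. Over the 28 list medians, 548 of 559 alternative values lay within 1 SD of the cells and 11 moved further. Only medians of 0.3 or more in size could count as reversed, and none did. The SD is that of single cells within the groups (log2 of a list's sum or of a gene's level) and not of the medians. Over 177 named genes, 3171 of 3186 values lay within 1 SD and 14 moved further. Of the ratios that were 2-fold or more, 1 changed sign, Cxcl2, which ran from -1.73 to 1.097 with 1 cell left out and was positive without knock cell 10. Counting smaller ratios too, 23 of the 177 changed sign with 1 cell left out, among them Cxcl1, Ccne1, Smad7, Tap1 and Atf6, as did 19 of the 28 list medians. Counts of genes moved with the level limit, with single cells and without the 2 cells next to the limit between the groups (the level limit sets how many genes enter, fewer cells separate more easily, and the cause of the other shifts was not tested). Genes 2-fold higher (54) numbered 115 at a limit of 20 CPM, 23 at 100 CPM and 31 to 87 with 1 cell left out. Genes 2-fold lower (21) numbered 160, 4 and 12 to 47 in the same order, and 12 with equal weights of cells. Genes higher without overlap (20) numbered 32, 7 and 23 to 72, and 36 with median-of-ratios factors, 31 with totals without mitochondrial and ribosomal protein genes and 66 without the 2 cells next to the limit. Genes lower without overlap (32) numbered 11 at 100 CPM, 45 to 73 with 1 cell left out, 15 after thinning and 102 without the 2 cells next to the limit. Of genes 2-fold apart 72.0% were higher, and 41.8% were at a limit of 20 CPM. In the control cells, equal weights took the p53 arrest median from 0.08 to -0.18 and the count of genes 2-fold higher from 27 to 176. With each control cell left out in turn, which was chosen after seeing the data except for cell 1, genes 2-fold higher numbered 12 (without cell 3) to 63 (without cell 5), with 41, 52 and 57 without cells 2, 8 and 10, and genes 2-fold lower, 62 in all, 43 to 110 (without cell 2). No scaling moved the median of all genes by more than 0.10. Depth limits low genes most: 3 counts stood for 4.08 to 19.6 CPM in single knock cells.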
